A study of Mus musculus with 17 samples.

Results

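The genes described here encode the machinery of the cell cycle in 2 stages, 20 genes of S phase and 25 genes of mitosis. They are 45 of the 23420 genes counted, chosen by symbol for their known functions. The rule uses no measured value, but the members were chosen with earlier results of these data known. The 17 libraries came from mouse cells of C57BL/6 knock-in animals carrying the R172H allele of p53, a missense mutant of the tumour suppressor, so that every group shares this background. Bone marrow mesenchymal stem cells (MSC, 3 libraries) had been flushed from leg bones and kept in MSC medium. Tumour lines of the 1st generation (TL1, 6 libraries) and of the 2nd generation (TL2, 4 libraries) were derived from MSC tumours. Clones of 1st generation lines either kept the mutant p53 (Mut clones, 2 libraries) or were labelled as p53 knockout (KO clones, 2 libraries). The tumour-derived cells were kept on agar in a medium with the cytokine LIF, so medium, plate and tumour origin cannot be told apart in a comparison with MSC. No cell was taken beyond 20 passages, and the passage of each library was not given. Libraries of MSC, TL1 and TL2 carry a number from their titles, with a letter added where a group holds a number more than once (TL1 3a).

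Before a cell copies its DNA, the MCM helicase is loaded onto origins with the help of Cdc6 and Cdt1, and it starts to unwind DNA once Cdc45 and the GINS complex join it. The genes of this stage are switched on by E2F transcription factors. Genes of mitosis are switched on later by B-Myb and FoxM1, which act through a promoter element called the cell cycle genes homology region (CHR), often with a CCAAT box nearby. In resting cells the same promoters are held off by the DREAM repressor complex, which forms when the inhibitor p21, encoded by the p53 target Cdkn1a, blocks cyclin-dependent kinases.

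The promoters of 6 members are shown because these elements are known to act in promoters of cell cycle genes. Any link of the elements to the levels of the members was not tested. Each is a stretch of 150 bases on the gene's own strand, 5′ to 3′, from RefSeq on GRCm38.p6. It ends at the RefSeq start of the gene or, for Rrm2, Cdk1 and Cdc20, 13, 26 and 9 bases before it, where an exon of the gene begins in GENCODE M21. Capitals mark an E2F site (TTTCGCGC or TTTGGCGC), a CHR (TTTGAA or TTTAAA) or a CCAAT box, on either strand. Rrm2, the small subunit of ribonucleotide reductase, and Mcm6, a helicase subunit, belong to S phase. Mad2l1, a spindle checkpoint protein, Cdk1, the kinase that drives entry into mitosis, Plk1, a mitotic kinase, and Cdc20, which activates the anaphase-promoting complex, belong to mitosis. The stretches lie at chr12:24708091-24708240 on the plus strand (Rrm2), chr1:128359706-128359855 on the minus strand (Mcm6), chr6:66535071-66535220 on the plus strand (Mad2l1), chr10:69352939-69353088 on the minus strand (Cdk1), chr7:122159285-122159434 on the plus strand (Plk1) and chr4:118437353-118437502 on the minus strand (Cdc20). They hold no annotated exon of the gene itself, and an exon of the antisense gene Gm15489 lies within that of Plk1.
Rrm2: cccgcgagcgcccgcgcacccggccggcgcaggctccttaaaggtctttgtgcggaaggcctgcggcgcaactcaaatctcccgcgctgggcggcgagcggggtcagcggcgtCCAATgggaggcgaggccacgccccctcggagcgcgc
Mcm6: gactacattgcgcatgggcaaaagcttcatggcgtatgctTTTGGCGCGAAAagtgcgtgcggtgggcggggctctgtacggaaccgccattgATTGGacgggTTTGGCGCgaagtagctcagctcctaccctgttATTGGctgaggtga
Mad2l1: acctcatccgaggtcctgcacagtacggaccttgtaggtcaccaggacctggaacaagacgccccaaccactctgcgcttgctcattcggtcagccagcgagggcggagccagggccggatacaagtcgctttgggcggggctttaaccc
Cdk1: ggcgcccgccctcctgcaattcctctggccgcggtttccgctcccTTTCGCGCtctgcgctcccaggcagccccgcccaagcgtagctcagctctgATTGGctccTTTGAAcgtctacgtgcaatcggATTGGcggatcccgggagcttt
Plk1: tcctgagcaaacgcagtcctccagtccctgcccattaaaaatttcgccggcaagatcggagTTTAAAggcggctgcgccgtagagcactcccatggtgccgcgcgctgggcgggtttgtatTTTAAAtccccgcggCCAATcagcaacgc
Cdc20: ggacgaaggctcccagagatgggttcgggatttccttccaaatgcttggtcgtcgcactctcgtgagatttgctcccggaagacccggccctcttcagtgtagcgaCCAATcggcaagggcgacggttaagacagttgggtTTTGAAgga

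Of these stretches, that of Mcm6 held 3 matches to the E2F letters, at 110, 106 and 47 bases before the RefSeq start, of which the first pair overlap. The stretch of Cdc20 had a CCAAT box at 53 bases before the start and the letters TTTGAA between that box and the start, and that of Plk1 had TTTAAA at 89 and 29 bases and a CCAAT box at 14. Cdk1 held all of the 3 kinds of match. Rrm2 had a CCAAT box at 50 bases, and Mad2l1 had none of the letters in this stretch. Over the 300 bases from 250 before to 50 after the start, promoters were found for 17 of 20 S-phase and 20 of 25 mitosis genes. A member with more than 1 start counts once, if any start holds the letters, while each promoter of the table counts apart. E2F letters were present for 6 of 17 S-phase genes (35.3%) and 1 of 20 mitosis genes (5.0%), against 0.813% of all 32851 promoters of the table. CHR letters were present for 16 of 20 mitosis genes (80.0%), 7 of 17 S-phase genes (41.2%) and 27.6% of all promoters. CCAAT was found in 75.0%, 70.6% and 37.4%, and CHR together with CCAAT in 70.0%, 35.3% and 10.7%. These matches describe the letters only.

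Library totals ranged from 12215025 to 15962341 counts, and the members together took between 0.237% and 0.866% of them. All 45 members passed the filter on low counts in every comparison. The summed level of 14 mesenchymal markers was 19513 to 27452 CPM (counts scaled to a common library size) in MSC and 2541 to 10951 CPM in the other libraries, and all 14 were above 1 CPM in MSC. The summed level of 12 macrophage and haematopoietic markers was 7.16 to 63.4 CPM, highest in TL2 1, and that of 7 endothelial markers at most 4.78 CPM. Among the former, Lyz2 read 20.1 CPM in MSC 1, 19.2 CPM in TL2 1, 17.5 CPM in TL1 3b and at most 1.73 CPM elsewhere. Any part of such cells in the levels of the members was not tested. Counts of the ribosomal RNA precursor Rn45s made up 4.14% of KO clone 2 and 0.476% to 1.59% elsewhere. In bulk RNA, fewer cycling cells and less RNA of these genes per cell cannot be told apart.

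**Figure D1:**
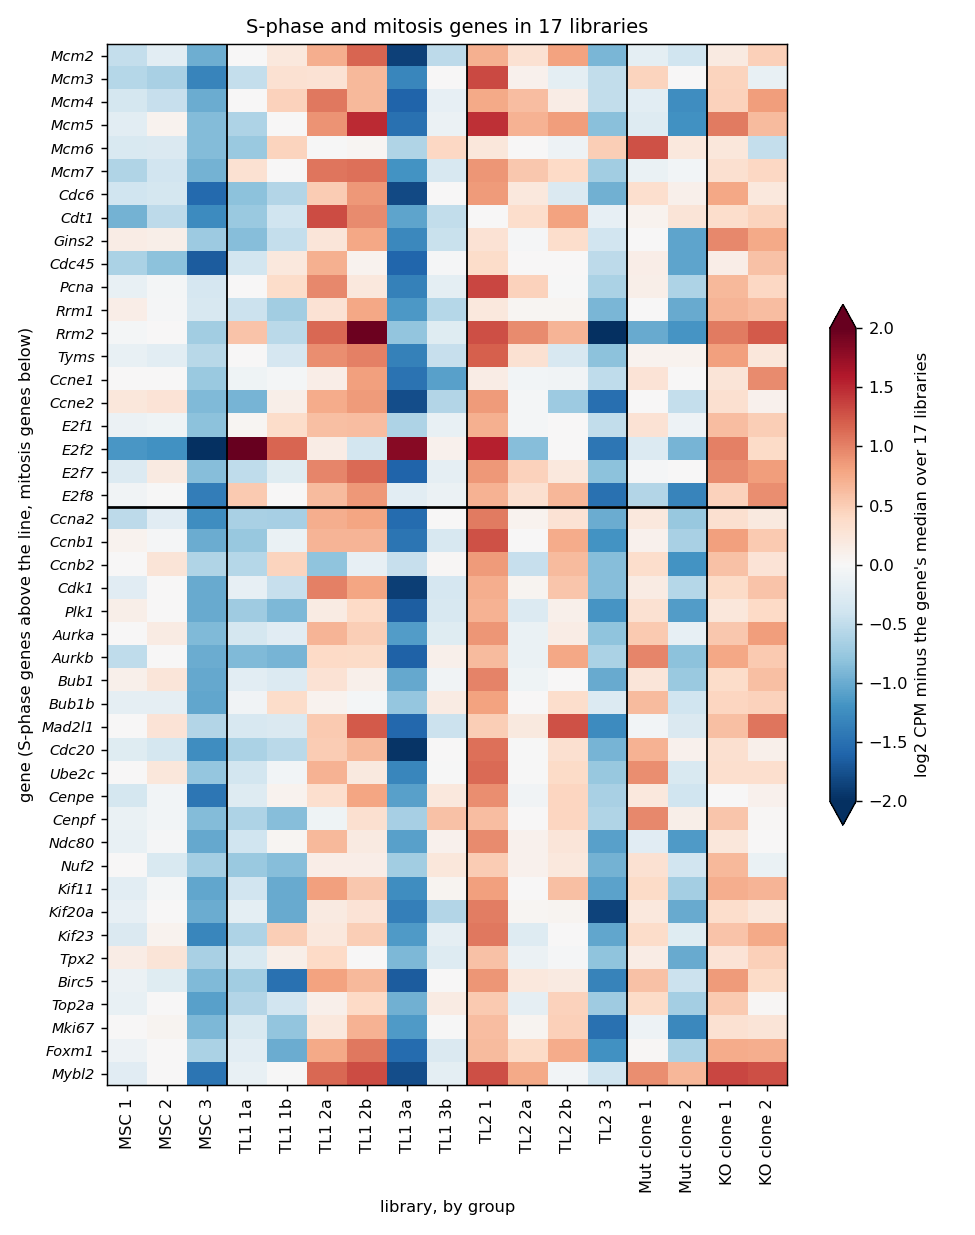
Log2 CPM of each S-phase gene (above the thick line) and mitosis gene (below it) minus that gene's median over the 17 libraries, by library and group; red is above and blue below the median, and the scale ends at 2 in both directions. Most genes of both sets are low together in TL1 3a, TL2 3 and MSC 3 and high together in TL2 1, TL1 2a and TL1 2b; E2f2 and Mcm6 depart from that pattern.

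The 45 genes largely varied together from library to library, and libraries of 1 group could stand far apart. The level of a set in a library is given as the median over its genes of log2 CPM minus the gene's median over all libraries. For S-phase genes it was -0.24, -0.15 and -0.88 in MSC 1, 2 and 3. Over the TL1 lines it was -0.23 (1a), 0.00 (1b), 0.71 (2a), 0.83 (2b), -1.33 (3a) and -0.19 (3b). In TL2 it was 0.80 (1), 0.25 (2a), 0.02 (2b) and -0.75 (3). MSC 3 stood below the other MSC, and TL1 3a and TL2 3 stood below the other 8 lines. Mitosis genes followed with -0.14, 0.00 and -0.999 in MSC, with -0.39, -0.38, 0.40, 0.48, -1.25 and 0.00 in TL1 and with 0.86, 0.00, 0.34 and -0.95 in TL2. The same 3 libraries were the lowest in their groups for both sets.

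Gene by gene, TL1 3a was the lowest of the 10 tumour lines for 16 of 20 S-phase and 20 of 25 mitosis genes, against 19% of all 13262 genes tested. MSC 3 was the lowest of the 3 MSC for 45 of 45 members, against 38.6% of all genes. The highest line was not the same for both sets. TL2 1 was the highest line for 19 of 25 mitosis genes but 4 of 20 S-phase genes (13.8% of all genes), and TL1 2b was the highest for 11 of 20 S-phase genes but 3 of 25 mitosis genes (8.27%). The difference between the sets in this respect was not tested. From the lowest to the highest line, S-phase genes spanned 2.38-fold to 18.2-fold (median 6.01) and mitosis genes 2.75-fold to 8.53-fold (median 4.55).

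**Figure D2:**
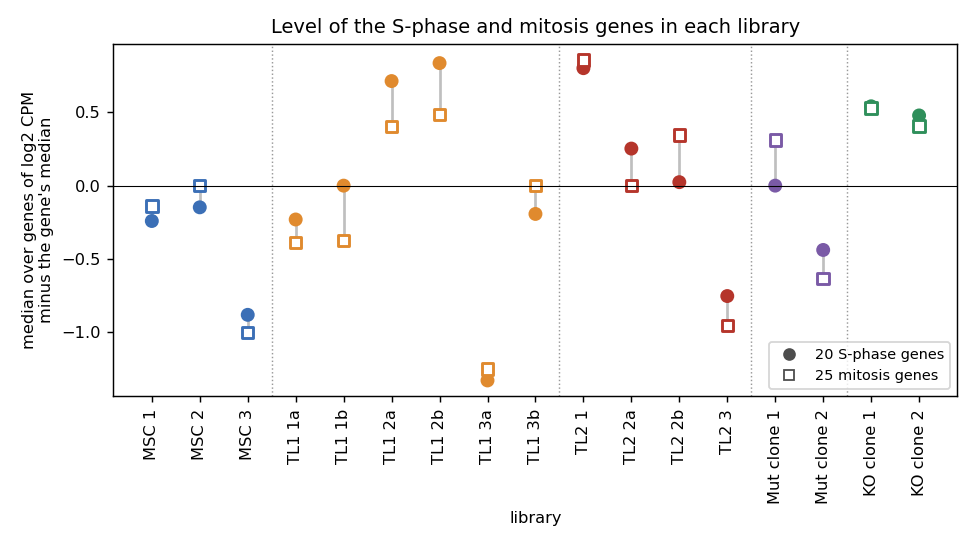
Level of the 20 S-phase genes (filled circles) and 25 mitosis genes (open squares) in each library, as the median over genes of log2 CPM minus the gene's median over 17 libraries; colours and dotted lines separate MSC, TL1, TL2, Mut clones and KO clones. TL1 3a is at -1.33 and -1.25, TL2 1 at 0.80 and 0.86, and both KO clones lie above both Mut clones in both sets.

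The comparison of tumour lines with MSC addresses how the lines differ from the cells of origin. No member was called, although nearly all had positive changes: 19 of 20 S-phase genes (median log2 change 0.73) and 25 of 25 mitosis genes (median 0.44), beside a median of 0.10 and 56.4% positive over all genes tested. With edgeR's quasi-likelihood test at an adjusted p under 0.05, 0 of 20 and 0 of 25 were called, against 8.65% of all genes in either direction and 3.86% higher. That background rests on few libraries: without MSC 3 the count of all genes called fell from 1147 to 304, and the share called higher to 0.553%. Without TL1 3a that count rose to 1532, and the share called higher to 5.20%. At an unadjusted p under 0.05 there were 6 S-phase genes and 0 mitosis genes (26.4% of all genes), limma-voom called none, and DESeq2 called E2f2 alone (adjusted p = 0.00754). The medians were 0.45 and 0.20 without MSC 3 and 0.93 and 0.56 without MSC 2. TL1 and TL2 minus MSC taken apart also gave 0 called members in either set, against 5.52% and 4.12% of all genes. Their medians were 0.66 and 0.75 for S-phase genes and 0.24 and 0.57 for mitosis genes; these comparisons share the 3 MSC libraries. The TL1 medians were 0.41 and 0.01 without MSC 3, the mitosis median of TL1 was 0.41 without TL1 3a, and that of TL2 was 0.31 without TL2 1. Over all genes, the calls went from 732 to 198 in TL1 without MSC 3 and from 546 to 101 in TL2 without MSC 1. Without TL1 3a they rose to 1031 for TL1 and to 725 for TL2. In tumour lines 3 of 14 mesenchymal markers fell and none rose, 1 of 6 haematopoietic markers tested rose and 1 fell, and neither of the 2 endothelial markers tested was called; their part in the values of the members was not tested.

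Among the helicase subunits Mcm2 to Mcm7, all 6 changes were positive, from 0.58 (Mcm6) to 1.04 (Mcm3, SE 0.44, adjusted p = 0.152). Mcm7 read 118, 136 and 92.3 CPM in MSC and 78.2 (lowest), 228 (median) and 383 (highest) CPM over all TL1 and TL2 lines. The 3 highest lines for Mcm7 were TL1 2b, TL1 2a and TL2 1, while TL1 3a lay below all MSC. Mcm2 had a change of 0.85 (SE 0.51) and Mcm5 one of 0.87 (SE 0.58). Among the loading and firing factors, Cdt1 (1.17, SE 0.49, adjusted p = 0.152) and Cdc45 (1.00, SE 0.39, adjusted p = 0.122) had larger estimates than Cdc6 (0.74) and Gins2 (0.10). With the title numbers as a replicate block, Cdt1 was called (0.95, adjusted p = 0.0484), but the numbers were not taken to pair MSC with lines, and no member was called when the lines were summed per number. Without TL1 3a, Cdc45 was called (1.09, adjusted p = 0.0317), beside 5.20% of all genes called higher. Without both TL1 3a and TL2 3, Cdc45, Mcm4 and Mcm7 were called (1.13, 1.07 and 1.21), with the share of all genes not reported here. Those 2 lines were left out because they are low for these very genes, while MSC 3, also low, was kept, so the calls made without them are no support for a difference.

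Genes for the sliding clamp and for nucleotide supply gave 0.52 (Pcna), 0.91 (Rrm2, SE 0.68), 0.57 (Tyms) and -0.02 (Rrm1), the only negative estimate among the members. The G1 cyclins Ccne1 and Ccne2 had 0.14 and 0.04, and -0.06 and -0.25 without MSC 3; the sign of Ccne2 also turned with limma-voom (-0.14) and with DESeq2 size factors. E2f2, an activator E2F, had the largest estimate, 2.38 (SE 0.80, adjusted p = 0.0837), while E2f1, its close relative, had 0.50 (SE 0.30). E2f2 read 3.93, 3.80 and 1.21 CPM in MSC, and 45.1 (1a), 20.3 (1b), 9.95 (2a), 6.91 (2b), 32.1 (3a) and 9.56 (3b) CPM in TL1. In TL2 it read 26.7 (1), 4.92 (2a), 8.97 (2b) and 3.22 (3) CPM. All 6 TL1 lines exceeded all 3 MSC, TL2 3 did not, and TL1 3a, lowest for most members, was the second highest of the lines. The repressive E2F genes E2f7 and E2f8 had 0.55 and 0.71.

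Mitosis genes had the lower median. Mybl2, which encodes B-Myb, had 0.93 (SE 0.58) and Foxm1 0.44 (SE 0.51). Ccna2, Cenpe and Cdc20 had 0.78, 0.74 and 0.69, while Tpx2, a spindle assembly factor, Plk1 and Ccnb2 had 0.01, 0.08 and 0.12, and Plk1 had -0.20 without MSC 3. Cdk1 had 0.56, Ccnb1 0.50, Aurkb, a kinase of the chromosomal passenger complex, 0.50, Top2a, which untangles DNA, 0.36 and Mki67, the Ki-67 antigen gene, 0.26. For no member did the libraries of the tumour lines lie wholly above those of MSC (5.04% of all genes did). The number of lines above all MSC was 3 to 9 of 10 for S-phase genes (median 7) and 2 to 8 for mitosis genes (median 5). The same number over all genes is not reported here, so these medians have no background beside them.

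**Figure D3:**
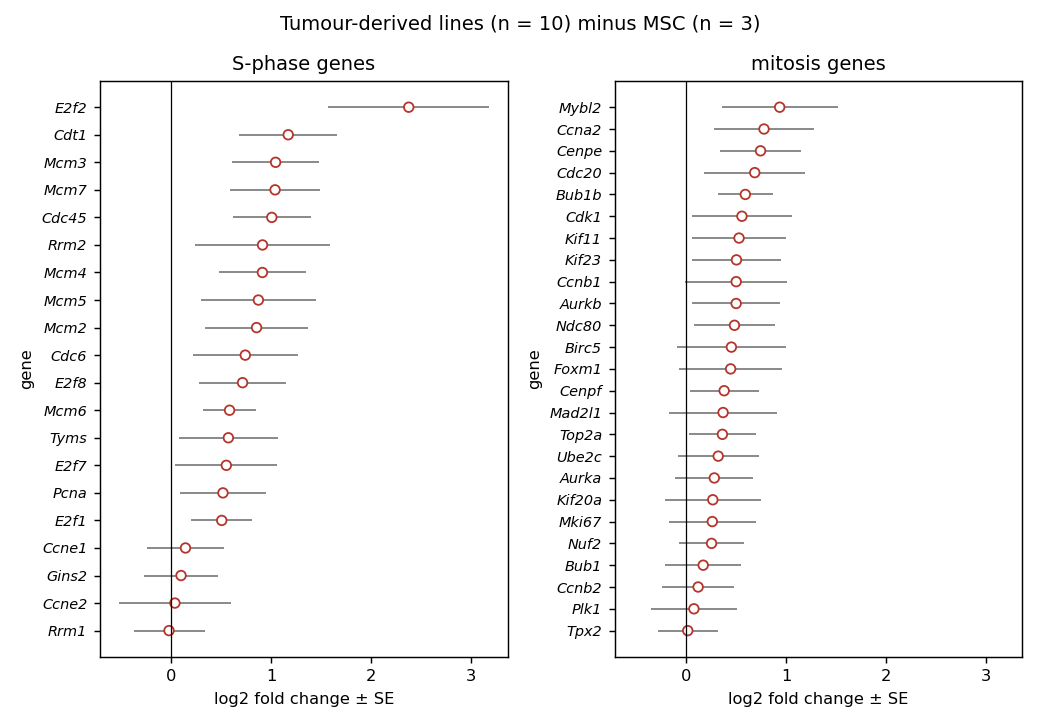
Log2 fold change of each member in tumour lines (10 libraries) minus MSC (3 libraries), with its standard error as a bar; filled points would mark an adjusted p under 0.05 and none is filled. Estimates run from -0.02 (Rrm1) to 2.38 (E2f2) among S-phase genes and from 0.01 (Tpx2) to 0.93 (Mybl2) among mitosis genes.

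Few other genes of the same pathways were called in this comparison. Of 48 further replication and repair genes, 2 rose and none fell (4.17%). Of 50 further mitosis genes, 1 rose: Cdc25b, the phosphatase that activates Cdk1 (1.42, SE 0.36, adjusted p = 0.0303). Of 14 genes of DREAM subunits, E2F factors and pocket proteins, none was called, and 2 had an unadjusted p under 0.05. Cdkn1a read 23.3, 21.6 and 11.01 CPM in MSC, 41.2 (lowest), 136 (median) and 312 (highest) CPM in TL1, and 70.0, 78.2, 50.2 and 34.4 CPM in TL2. Every tumour line exceeded every MSC library for Cdkn1a. Its change was 2.38 for all lines (adjusted p = 0.0504, not called) and it rose by 3.08 in TL1 (SE 0.74, adjusted p = 0.0321).

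Between TL2 and TL1 no member was called, nor any gene of 13262 (0.00%). At an unadjusted p under 0.05 there were 246 genes (1.85%) and none of the 45 members, and every adjusted p was 1.00; DESeq2 and limma-voom called no member either. These lines were taken as paired by title number because TL1 and TL2 deviated together across genes within a number. The values reported first come from a fit without that pairing. With the numbers as a replicate block no gene was called either and the medians given next were 0.05 and 0.19. Median log2 changes were 0.08 for S-phase genes (15 of 20 positive) and 0.28 for mitosis genes (25 of 25 positive), against 0.02 and 52.8% positive over all genes. Without TL2 1, the highest line for most mitosis genes, the medians were -0.14 and -0.01. E2f2 had the most negative estimate (-0.90, SE 0.68) and Aurkb the largest positive one (0.51, SE 0.42). Ccnb1 (0.51) and Kif20a, a motor of cytokinesis (0.48), came next, and the largest of the S-phase genes was Mcm5 (0.42, SE 0.53).

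Estimates for lines with the number 3 in their titles were below those for number 1 for most members. The change of number 3 against number 1, adjusted for generation, was negative for 19 of 20 S-phase genes (median -1.04) and 24 of 25 mitosis genes (median -0.83), against 51.4% of all genes (median -0.02). Not every line of number 3 was low. The set level of TL1 3b lay between those of TL1 1a and 1b for S-phase genes (-0.19 against -0.23 and 0.00). For mitosis genes it lay above both (-0.000686 against -0.39 and -0.38). These medians were not recomputed with a line left out. Number 2 against number 1 was positive for 15 of 20 (median 0.25) and 18 of 25 (median 0.27), against 51.1% of all genes (median 0.01). The joint test of the 3 numbers in edgeR called 0 of 45 members, against 2.09% of 12948 genes. The 271 genes behind that share were 29 without TL2 3 and 376 without TL1 3a. At an unadjusted p under 0.05 it had 15 of 20 S-phase and 3 of 25 mitosis genes, against 23.1% of all genes, while DESeq2 called 9 and 3 and limma-voom none. The share of all genes that DESeq2 called is not reported here, so its counts of members have no background beside them. The mitosis genes that DESeq2 called were Cdk1, Foxm1 and Mad2l1.

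Cdt1 had the lowest adjusted p (0.0558). It read 47.8, 60.3 and 79.9 CPM in the lines of number 1, 197, 155, 102 and 139 CPM in those of number 2, and 38.4, 57.0 and 71.0 CPM in those of number 3. The 4 lines of number 2 lay above all others, and those of numbers 1 and 3 overlapped. Mcm2 (adjusted p = 0.0668) read 171, 199 and 281 CPM for number 1, 282, 383, 211 and 298 CPM for number 2 and 47.0, 119 and 90.4 CPM for number 3. Here number 3 lay below all others. Rrm2 had the widest span of any member, from 35.7 CPM in TL2 3 to 651 CPM in TL1 2b, with a change of -1.68 for number 3 against number 1 (adjusted p = 0.130). Without TL2 1, Rrm2 was called (adjusted p = 0.0487).

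Mcm6 did not share this order. It read 105, 239 and 205 CPM in the lines of number 1, 176, 182, 176 and 165 CPM in those of number 2 and 116, 235 and 249 CPM in those of number 3, with an unadjusted p of 0.873. Its highest line was TL2 3, which was the lowest line for 7 of the 45 members. Of the other pathway genes, Pbk, a mitotic kinase gene, and E2f4, the E2F of the DREAM complex, differed between numbers (adjusted p = 0.0485 and 0.0392). Pbk was 1 of 50 further mitosis genes (2%) and E2f4 was 1 of 14 DREAM, E2F and pocket protein genes (7.14%), against 2.09% of all genes. E2f4 was at 290, 332 and 524 CPM in the lines of number 1 and at no more than 220 CPM in any other line.

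Knockout clones were compared with control clones to address what depends on the mutant p53 in these lines. The label was checked on Trp53 itself, the gene of p53. It read 358 and 280 CPM in the Mut clones and 80.8 and 89.6 CPM in the KO clones, a 3.70-fold decrease (log2 change -1.89, SE 0.23; adjusted p = 0.00259). RNA of Trp53 was thus still counted in the KO clones. Cdkn1a, the p21 gene, read 11.8 and 13.5 CPM in the Mut clones and 156 and 134 CPM in the KO clones, an 11.5-fold rise (log2 3.53, SE 0.24, adjusted p = 0.000265).

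In the KO clones 6 of 20 S-phase genes rose (30%) and 2 of 25 mitosis genes rose (8%), against 14.2% of 12238 genes called higher and 26.1% called in either direction. No member fell. Over all genes 1734 were called higher and 1466 lower, but 1472 and 1816 with library totals alone, and leaving out 1 clone brought the 3200 calls down to between 1347 and 1755. The median log2 change was 0.69 for S-phase and 0.57 for mitosis genes, against 0.0050 for all genes, and 18 of 20 and 22 of 25 changes were positive against 50.3%. The mitosis share lies below the background. Both KO clones lay above both Mut clones for 15 of 20 and 13 of 25 genes, against 34.6% of all genes.

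Rrm2 rose most. It read 82.9 and 73.5 CPM in the Mut clones and 341 and 391 CPM in the KO clones, a 4.73-fold difference (log2 2.24, SE 0.21, adjusted p = 0.00107). Its partner subunit Rrm1 read 246 and 122 CPM against 393 and 378 CPM (log2 1.08, adjusted p = 0.0635). Pcna had a change of 0.75 (SE 0.28, adjusted p = 0.0977) and Tyms, thymidylate synthase, one of 0.50. The KO clones lay above the Mut clones for all 4 of these genes, and only Rrm2 was called by edgeR, while DESeq2 and limma-voom also called Rrm1.

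The atypical E2F genes E2f7 and E2f8, whose products repress S-phase genes, both rose. E2f8 read 19.7 and 11.8 CPM in the Mut clones and 40.7 and 56.7 CPM in the KO clones (3.12-fold, log2 1.64, SE 0.34, adjusted p = 0.0165). E2f7 read 31.6 and 32.1 CPM against 61.7 and 57.1 CPM (1.89-fold, log2 0.92, SE 0.22, adjusted p = 0.0257). The activators E2f1 and E2f2 had changes of 0.46 (adjusted p = 0.194) and 1.32 (adjusted p = 0.0571) and were not called.

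The helicase subunits split. Mcm5 rose from 107 and 54.8 CPM to 261 and 199 CPM (2.87-fold, adjusted p = 0.0260), and Mcm4 from 131 and 64.2 CPM to 209 and 272 CPM (2.48-fold, adjusted p = 0.0464). The Mut clones themselves differed 1.95-fold for Mcm5 and 2.04-fold for Mcm4, with Mut clone 1 the higher. Mcm2 (0.64, adjusted p = 0.0709) and Mcm7 (0.48, adjusted p = 0.112) did not pass, and Mcm3 had a change of -0.04. Mcm6 read 425 and 203 CPM in the Mut clones and 206 and 126 CPM in the KO clones (-0.91, SE 0.42, adjusted p = 0.169), the most negative estimate of the 45. Gins2, a GINS subunit, rose from 40.7 and 19.6 CPM to 78.9 and 68.8 CPM (2.47-fold, adjusted p = 0.0447). Cdc45, Cdc6 and Cdt1 had 0.73, 0.31 and 0.26, and Ccne1 and Ccne2 had 0.52 and 0.44, none called.

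**Figure D4:**
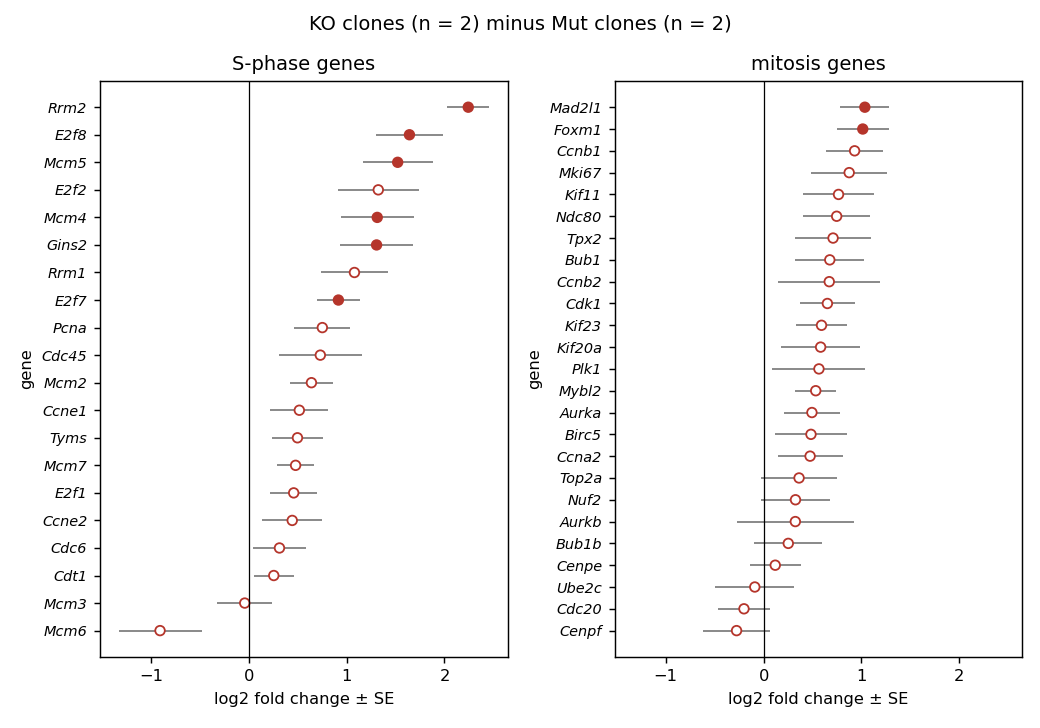
Log2 fold change of each member in KO clones (2 libraries) minus Mut clones (2 libraries), with its standard error as a bar; filled points have an adjusted p under 0.05 in edgeR. The 8 filled genes, all to the right of 0, are Rrm2, E2f8, Mcm5, Mcm4, Gins2 and E2f7 of S phase and Mad2l1 and Foxm1 of mitosis, and Mcm6 is farthest to the left at -0.91.

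Of the mitosis genes, Mad2l1 read 57.2 and 48.95 CPM in the Mut clones and 90.3 and 125 CPM in the KO clones (2.05-fold, log2 1.03, SE 0.25, adjusted p = 0.0264). Foxm1 read 123 and 78.2 CPM against 202 and 200 CPM (2.02-fold, log2 1.01, SE 0.27, adjusted p = 0.0351), and Mybl2 91.0 and 76.0 against 122 and 118 CPM (0.53, adjusted p = 0.110). Ccnb1 had the next largest change, 0.93 (SE 0.29, adjusted p = 0.0579), then Mki67 with 0.87. Cdk1 (0.65), Plk1 (0.57), Top2a (0.36) and Aurkb (0.32) had smaller values. Cdc20 and Ube2c, both of the anaphase-promoting complex pathway, and Cenpf, a kinetochore protein, had -0.20, -0.09 and -0.28.

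The Mut clones differed from each other on these genes. Mut clone 1 lay above Mut clone 2 for 25 of 25 mitosis genes (median ratio 1.95) and 16 of 20 S-phase genes (median ratio 1.37), against 48.1% of all genes. The calls depended on the method and on which clones were included. DESeq2 called 12 members, adding Ccnb1, E2f2, Mcm2 and Rrm1 to the 8, and its share over all genes is not reported here. Limma-voom called 10, adding Ccnb1 and Rrm1, and with no filter on low counts Ccnb1 was added. With library totals alone 5 were called, and Foxm1, Gins2 and Mcm4 were not. Without Mut clone 1, 17 members were called, 7 of S phase and 10 of mitosis, 6 of them among the 8. Without Mut clone 2 or without KO clone 2, Rrm2 alone was called, and without KO clone 1, E2f8, Mad2l1 and Rrm2 were. The mitosis median was 1.08 without Mut clone 1 and 0.09 without Mut clone 2, and that of S-phase genes 0.83 and 0.50. Aurkb and Top2a turned to -0.32 and -0.08 without Mut clone 2, and Cdc20 turned to 0.15 without Mut clone 1. In a fit of all 17 libraries, none of the 45 was called. Whether such differences come from the knockout or from the clones picked cannot be told apart with 2 clones a group.

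**Figure D5:**
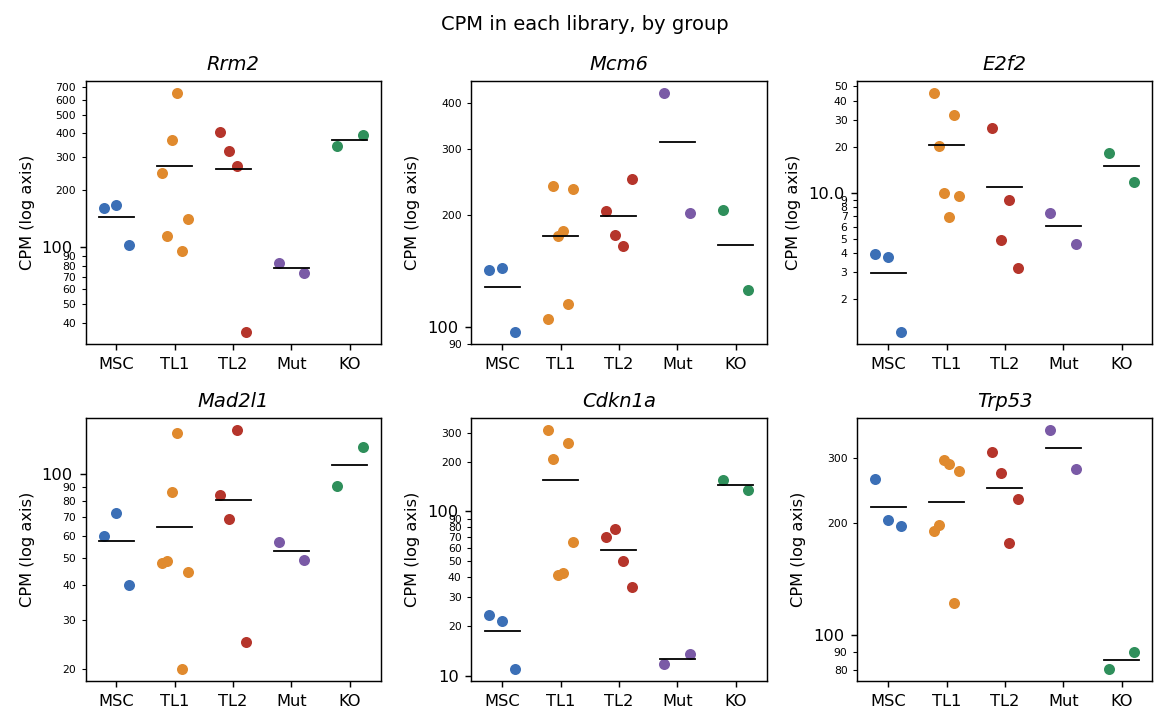
CPM of 4 members and of Cdkn1a and Trp53 in each library (points, log axis), by group, with the group mean as a bar. Rrm2 is at 341 and 391 CPM in the KO clones against 82.9 and 73.5 CPM in the Mut clones, Mcm6 is highest in Mut clone 1 (425 CPM), and Cdkn1a is at 11.8 and 13.5 CPM in the Mut clones against 156 and 134 CPM in the KO clones.

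Of the 48 further replication genes, 6 rose and 1 fell in the KO clones. The share called was 14.6% (12.5% higher), below the 26.1% and 14.2% of all genes. The clamp loader subunit gene Rfc3 (log2 1.37), the chromatin assembly genes Chaf1b (1.33) and Asf1b (0.87), Orc6 of the origin recognition complex (1.08), the histone messenger RNA binding gene Slbp (0.98) and the flap endonuclease gene Fen1 (0.97) rose, and Orc2 was 2.83-fold lower. Orc2 was at 163 and 236 CPM in the Mut clones and at 76.2 and 62.8 CPM in the KO clones (adjusted p = 0.00851). Of 50 further mitosis genes, 4 rose (8%), also below the background: Cdca3 (1.46), Spc24 of the NDC80 complex (1.30), Ckap2 (1.23) and Cks2, a partner of Cdk1 (0.80). Of the 14 DREAM, E2F and pocket protein genes, 3 were called (21.4%, and 7.14% higher), also below the shares of all genes. Rb1, the retinoblastoma gene, whose product is a pocket protein outside DREAM, rose (0.98, adjusted p = 0.0345), and E2f5 and Lin9 fell by 1.22 and 0.90 (adjusted p = 0.0181 and 0.0359).

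Beside these changes, 4 of 13 mesenchymal markers tested rose and 2 fell in the KO clones, with summed levels of 4952 to 4956 CPM against 2541 to 3174 CPM in the Mut clones, and 1 of 3 haematopoietic markers tested rose and 1 fell. Of the haematopoietic markers, Ptprc (CD45), Emr1, Tyrobp and Cd3e had no count in either KO clone, and Emr1, Lyz2, Tyrobp and Sfpi1 had none in either Mut clone. The part of these markers in the results was not tested. No endothelial marker passed the filter there. Of the members, Ccna2, Ccne2, Cdc20, E2f7, Gins2, Kif20a, Mcm7 and Ube2c share exon bases with a gene on the opposite strand that is also in the table, and without a stated strand setting the reads of such partners cannot be told apart.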

How the data were processed

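RNA of 17 libraries was read from one end over 60 bases, per the labels' protocols. The submitters' processing notes name TopHat2 2.0.10, HTSeq 0.6.1p1, cutadapt, DESeq2 1.6.3 and the build mm10. The role and order of each tool, the annotation and any use of strand in counting were not given in the sources used here. Whole-number counts per gene symbol for 23420 genes were deposited by the authors and used without change. A further 4 columns match no sample and entered no step. The rule for the members uses symbols and no measured value, but members and gene lists were chosen with earlier results of these data known. The genes named are members called in any comparison, 18 fixed members, the 3 largest and 3 smallest changes in each comparison and set, Trp53, Cdkn1a and up to 4 called genes of each further list; others were named after their values were seen. Not every gene under this rule is reported here; counts cover all of them.

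CPM and log2 CPM (prior count 2) used TMM scaling. Tests were edgeR 4.0.16 quasi-likelihood F tests (R 4.3.3) with its expression filter and robust estimation. Benjamini-Hochberg adjustment ran over all genes tested, and genes under 0.05 were called. The procedure was tested on simulated data. There, libraries were independent and every gene had the same dispersion, so related lines were not covered. One fit held MSC, TL1 and TL2 (13 libraries) and another the 4 clones. The 10 lines carry only the numbers 1, 2 and 3, and the first fit counted each line as a separate library. Its p-values do not allow for lines of a number being related. The title numbers were tested jointly over the 10 lines with generation as covariate. SE is the standard error of the log2 change. Nothing in the labels ties the libraries of a group to different animals or cultures, so p-values reflect only how these libraries spread, which may be technical. Every pair of libraries in a group differed beyond sampling noise (chi-square per degree of freedom at least 30.5). Across genes, TL1 and TL2 deviated together within a number (r = 0.461, 0.376 and 0.510 for 1, 2 and 3) and were taken as paired, with the block as an alternative and not in the values reported first. For MSC the values were lower, with TL1 (r = 0.0164, 0.0411 and 0.167) and with TL2 (r = 0.225, -0.0319 and 0.193). MSC were not taken as paired. Alternatives were other scalings, no filter, DESeq2 1.42.0, limma-voom (limma 3.58.1), other sets of libraries in a fit, the replicate block and leaving out each library. Exon overlaps came from GENCODE M21.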

Additional observations from a re-analysis of the deposited data

Results flagged for a closer look

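Among 94 sets examined (each member and each set level within the 6 TL1 and within the 4 TL2 lines), the lowest library stood far from the rest in 2. Both were TL2 3 within the 4 TL2 lines. Rrm1 stood at -0.9097 there, as log2 CPM minus the gene's median over all libraries, with CPM of 131 against 253, 252 and 284 in the other TL2 lines. E2f8 stood at -1.4889, with 10.5 CPM against 37.3, 47.1 and 48.0. Chance alone marks about 1 in 20 such sets of normal values, but these sets share libraries and the genes largely vary together. The 2 of 94 therefore cannot be set against that rate. Rrm2 was also lowest in TL2 3, at 35.7 CPM against 267, 321 and 408.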

How the results depend on the processing

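Tumour lines minus MSC: S-phase genes called numbered 1 with DESeq2, 1 with the number as a replicate block, 3 without both TL1 3a and TL2 3, and 0 to 1 when single libraries were left out (1 without TL1 3a). TL1 minus MSC: S-phase genes called numbered 1 with DESeq2, 1 with all 17 libraries in the fit, 1 with the replicate block, 1 without both TL1 3a and TL2 3, and 0 to 1 with single libraries left out. KO minus Mut clones: with library totals alone 1 mitosis gene was called, with DESeq2 12 members in all, with all 17 libraries 0 and 0, and with 1 library left out 1 to 7 S-phase and 0 to 10 mitosis genes; the lone clone is then assumed to vary like the other group. Line numbers: 1 S-phase gene was called with no filter, 9 S-phase and 3 mitosis genes with DESeq2, and 0 to 1 S-phase genes with single libraries left out (1 without TL2 1). The causes of these shifts were not tested, and the share of all genes that DESeq2 called is not reported here. The block changed no other call of the sets. Library totals alone moved the median of all genes in the clones from 0.0050 to -0.13, and the split of called genes in tumour lines from 512 higher and 635 lower to 680 and 547. In the 150 bases before the start alone, E2F letters were present for 2 of 17 S-phase genes (11.8%) (0.423% of all promoters). CHR letters were present there for 8 of 20 mitosis and 4 of 17 S-phase genes (14.7% of all promoters). With 2 clones a group, the smallest change called among the members was 0.92 (E2f7) and the largest not called 1.32 (E2f2), on the log2 scale.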
